A study of Mus musculus with 35 samples.

Results

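The 10 genes listed as smooth-muscle contractile genes of myofibroblasts, Acta2, Tagln, Cnn1, Myl9, Tpm1, Tpm2, Actg2, Myh11, Lmod1 and Smtn, were followed by their symbols through all 4 deposited RNA-Seq tables. They are 10 of the 55487 genes that each table lists, and every one of them passed edgeR's own filter on low counts in every comparison. The rule names symbols and uses no measured value, so each comparison could be tested, although the list was drawn up with earlier results of these data known.

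These genes build and tune the actomyosin machinery of smooth muscle. Smooth-muscle actins form the thin filament, smooth-muscle myosin with its regulatory light chain pulls on it, and tropomyosin, calponin, transgelin, smoothelin and leiomodin cover, bundle or extend it. Quiescent fibroblasts of the heart make little of this machinery. When fibroblasts are activated, classically by TGF-β, many of these genes come on through serum response factor with its myocardin-family partners and through SMAD proteins, and the contractile cell is called a myofibroblast.

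The study asked what the micropeptide IAMP, encoded by 4930523C07Rik, does in cardiac fibroblasts (CFs) and in the heart. Primary CFs came from adult mouse hearts of 8 weeks by enzymatic digestion and passage of the cells left after cardiomyocytes had settled, so they are a mixed noncardiomyocyte culture and not a clone. They received a control siRNA (si-NC) or 1 of 2 siRNAs against IAMP (si-IAMP-1 and si-IAMP-2), with 3 libraries each in untreated CFs, in CFs labelled IL17 and in CFs labelled TGF-β, 27 libraries in all. Hearts came from C57BL/6 mice of 8 weeks under basal conditions, 4 heterozygous controls (Het) and 4 knockouts (KO) that carry a CRISPR frameshift in the IAMP gene. Het mice therefore also carry 1 mutated allele, and the frameshift leaves the transcript in place, so its level does not check the genotype. The labels give 24 h of siRNA and then 24 h of IL-17, and they attach that protocol to every sample, hearts and TGF-β CFs included. No other source gives a time for the untreated or TGF-β CFs, and none says whether the 3 libraries of a group came from separate cultures.

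Library totals ran from 104139670 to 119232309 estimated counts in CFs and from 23497027 to 23857313 counts in hearts. Levels are CPM (counts scaled to library size) after TMM scaling, over 27 CF libraries or 8 hearts, and a difference is a log2 fold change from edgeR's quasi-likelihood test with its standard error and a Benjamini-Hochberg adjusted p over all genes tested. Calls required an adjusted p no greater than 0.05. The targeted transcript 4930523C07Rik (ENSMUSG00000090394, plus strand of chromosome 1, 160044382 to 160080208, GRCm38) stood at 22.0 to 25.7 CPM with si-NC in untreated CFs, 2.52 to 3.51 with si-IAMP-1 and 1.77 to 1.89 with si-IAMP-2, and every siRNA library lay below every si-NC library in the other CF tables too. With si-IAMP-1 and si-IAMP-2 it fell 7.84-fold and 12.9-fold in untreated, 7.23-fold and 10.8-fold in IL17 and 4.71-fold and 6.26-fold in TGF-β CFs. Set against si-IAMP-1, si-IAMP-2 left it lower in these cultures, at −0.72 (edgeR adjusted p = 6.12e-05), −0.58 (0.000306) and −0.41 (0.00867). Whether the depth of knockdown bears on differences between siRNAs or cultures was not tested. In hearts the transcript ranged from 15.9 to 18.8 CPM in Het and 15.2 to 17.3 in KO mice. The 9 fibroblast markers summed to 9381 to 17721 CPM over the CF libraries. The 8 cardiomyocyte markers summed to 90.6 to 98.2 CPM in untreated si-NC CFs, nearly all of it Tnnt2, and to 5.27 to 6.02 in TGF-β si-NC CFs. Of these 8, Myh6 and Myl3 were at or under the floor of 18 estimated counts (3 read pairs) in all 9 CF groups. A check of the stimuli gave a mixed picture. All 7 genes of an IL-17 response list rose in si-NC CFs labelled IL17, with a median log2 fold change of 4.82, and all 7 also rose in those labelled TGF-β, with a median of 5.61. Of 6 TGF-β response genes, 3 were higher and 2 lower in the TGF-β table, from Ltbp2 at 4.82 through Col1a1 at 0.88 and Ccn2 at 0.46 to Smad7 at −0.98. Of all 22359 genes tested, 6.13% were called higher and 6.1% lower in IL17 si-NC CFs, and 28% and 27.5% in TGF-β si-NC CFs. The TGF-β CFs are named by their label throughout, and the table and the stimulus cannot be told apart.

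RefSeq (GRCm38.p6) gave a promoter, from 250 bases before to 50 after the start site, for 7 of the 10 genes (Acta2, Cnn1, Myl9, Tpm1, Tpm2, Lmod1 and Smtn). They were searched for the CArG box bound by serum response factor and for the MCAT motif bound by TEAD proteins, written CATTCC or, on the other strand, GGAATG. Both strands were searched, and the matches printed here did not overlap one another. The windows below hold the matches in capitals with 10 bases on either side and are shown because these are the elements through which the genes are usually said to be turned on together.
Myl9, CArG box, chr2:156775293-156775322, plus strand: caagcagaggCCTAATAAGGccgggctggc
Myl9, CArG box with another base in its core, chr2:156775355-156775384, plus strand: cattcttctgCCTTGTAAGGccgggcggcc
Acta2, upstream CArG box with another base in its core, chr19:34255438-34255467, minus strand: gtgctgaggtCCCTATATGGttgtgttaga
Acta2, downstream CArG box with another base in its core, chr19:34255388-34255417, minus strand: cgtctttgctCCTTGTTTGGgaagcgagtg
Acta2, MCAT, chr19:34255504-34255529, minus strand: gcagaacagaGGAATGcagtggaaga
Tpm1, MCAT, chr9:67049254-67049279, minus strand: gctgtcctaaGGAATGcggtcgcccc
Lmod1, MCAT, chr1:135324673-135324698, plus strand: aagattccctGGAATGtcctcaagtt
Smtn, MCAT, chr11:3539499-3539524, minus strand: gtttgtggcaCATTCCggactttggc
Of the 7 promoters, 1 held an exact CArG box, as did 1.63% of all 32851 promoters of that length. Acta2 and Myl9 held the form with a single G or C in the core, present in 8.5% of all promoters, and this form was added to the search after the sequences had been read. MCAT stood in 4 of the 7 against 14.7% of all promoters, while Cnn1 and Tpm2 held none of these words. The SMAD word CAGAC, counted on both strands, is in 49.6% of all promoters and so separates little. These matches are letters in a window and not measured binding.

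**Figure D1:**
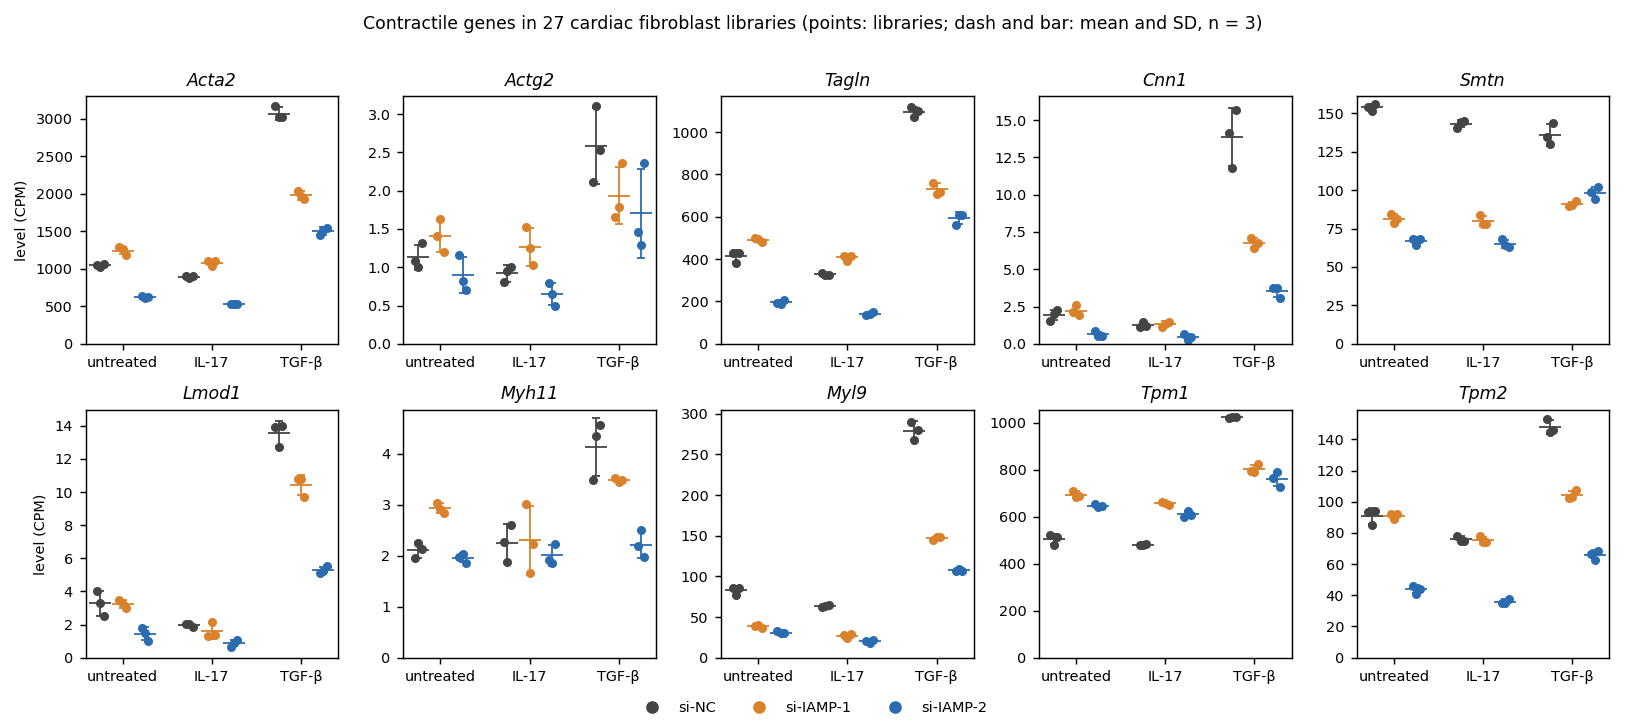
Level of each contractile gene in every CF library, in CPM on linear axes that start at 0, with 1 panel per gene. Points are libraries, coloured by siRNA and grouped by culture (untreated, IL17, TGF-β), and a dash with a bar gives the mean and SD of each group (n = 3). Acta2, Tagln and Myl9 stand higher in the TGF-β CFs than in the untreated CFs with every siRNA.

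The levels of the 10 genes spanned a wide range within the same culture. Per kilobase of annotated exon in untreated si-NC CFs, Acta2 stood at 477 ± 8.76 CPM per kb (SD, n = 3), Tagln at 209 ± 13.6, Tpm1 at 78.0 ± 3.32 and Myl9 at 71.2 ± 4.54. Smtn followed at 35.2 ± 0.514 and Tpm2 at 31.3 ± 1.82. The genes most restricted to mature smooth muscle came last, with Lmod1 at 0.831 ± 0.190, Actg2 at 0.728 ± 0.105, Cnn1 at 0.705 ± 0.133 and Myh11 at 0.278 ± 0.0199 CPM per kb. The ranges of Lmod1, Actg2 and Cnn1 overlapped, so their order is not resolved, while each of the other neighbours in this order differed without overlap. In TGF-β si-NC CFs, Myl9 at 240.3 ± 9.96 stood above Tpm1 at 158 ± 0.336, Tpm2 at 50.8 ± 1.52 above Smtn at 31.0 ± 1.58, and Cnn1 at 5.07 ± 0.714 above Lmod1 at 3.43 ± 0.184 CPM per kb.

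In TGF-β CFs most of the contractile genes were lower with each siRNA against IAMP, whereas in untreated CFs and IL17 CFs the siRNAs differed. In untreated CFs, si-IAMP-1 left Acta2, Tagln, Tpm1 and Myh11 higher and Myl9 and Smtn lower, 4 and 2 of 10, where 19.5% and 20.4% of all 19669 genes tested were called higher and lower. With si-IAMP-2, Tpm1 alone was higher and Acta2, Tagln, Cnn1, Myl9, Tpm2, Lmod1 and Smtn were lower, 1 and 7 of 10, where 24.4% and 25% of all genes were called. Set directly against si-IAMP-1, si-IAMP-2 left all 10 genes lower, beside 22.7% of all genes called higher and 22.8% called lower. The median log2 fold change of the 10 was 0.22 with si-IAMP-1 and −1.09 with si-IAMP-2, against −0.0161 and −0.0201 over all genes tested. In each culture both comparisons share the si-NC libraries, so their values are set side by side and no overlap between them is read as a result. An effect of IAMP loss and an effect particular to 1 siRNA cannot be told apart here.

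In IL17 CFs the siRNAs also parted. Acta2, Tagln and Tpm1 were higher and Myl9 and Smtn lower with si-IAMP-1, beside 20.3% and 21.9% of all 19906 genes tested. Tpm1 was higher and the same 7 genes as in untreated CFs were lower with si-IAMP-2, beside 25% and 25.6%. Against si-IAMP-1, si-IAMP-2 gave 9 lower genes and none higher, Myh11 being the exception at −0.20 (standard error 0.205, edgeR adjusted p = 0.472), beside 23.1% higher and 23.1% lower of all genes. In TGF-β CFs no contractile gene was higher with either siRNA. Of 10, 8 were lower with si-IAMP-1, beside 11.7% of all 19891 genes called higher and 11.4% lower, and 9 were lower with si-IAMP-2, beside 15.1% and 14.8%. The median log2 fold change of the 10 genes was −0.54 and −0.96, against 0.000297 and 0.0135 over all genes. Between the siRNAs, 7 genes were lower with si-IAMP-2 and 0 higher, beside 12% and 12% of all genes, with Smtn, Tpm1 and Actg2 not called. These are bulk libraries, so fewer contractile cells in a culture and less contractile RNA per cell cannot be told apart.

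**Figure D2:**
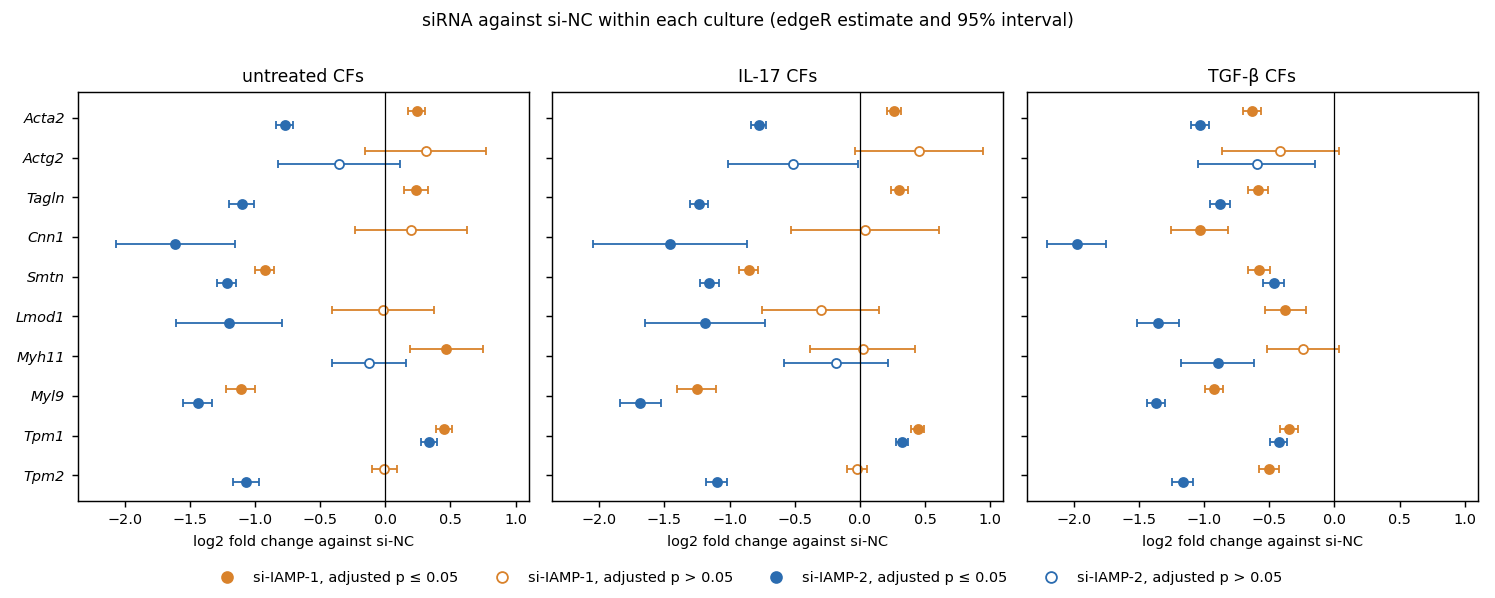
Log2 fold change of each contractile gene with si-IAMP-1 and si-IAMP-2 against si-NC in untreated, IL17 and TGF-β CFs, with 95% intervals and with filled points at an adjusted p of at most 0.05. In TGF-β CFs all 20 estimates lie below 0, whereas in untreated and IL17 CFs the si-IAMP-1 points of Acta2, Tagln and Tpm1 lie above 0 and those of Myl9 and Smtn below.

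Markers of mural cells, the vascular smooth muscle and pericytes that use the same contractile genes, were read beside these results. The 10 mural markers summed to 545 to 547 CPM in untreated si-NC CFs, 809 to 845 with si-IAMP-1 and 306 to 324 with si-IAMP-2, and to 751 to 819, 772 to 807 and 558 to 589.6 in TGF-β CFs. Most of that sum was Pdgfrb, a receptor that fibroblasts also make, at 408, 743 and 247 CPM in the 3 untreated groups. Of the 8 mural markers tested there, 1 was higher (Pdgfrb) and 3 were lower with si-IAMP-1, and 0 were higher and 4 lower with si-IAMP-2. Without Pdgfrb, the other 9 summed to 135 to 140.5 CPM with si-NC, 76.7 to 83.0 with si-IAMP-1 and 63.7 to 75.1 with si-IAMP-2 in untreated CFs. This sum was lower with si-IAMP-1, where 4 contractile genes, Acta2 and Tagln among them, were higher and 2, Myl9 and Smtn, were lower. The same 9 summed in TGF-β CFs to 94.1 to 95.8, 72.7 to 73.9 and 69.6 to 73.4 CPM. Higd1b was at or under the floor of 18 estimated counts in all 9 groups, as was Kcnj8 in 6 of the 9 and Vtn in 4 of the 9. In TGF-β CFs with si-IAMP-1, where 8 contractile genes were lower, the sum with Pdgfrb overlapped that of si-NC and the sum without it was lower. The cardiomyocyte sum, of which Tnnt2 made up nearly all, was 90.6 to 98.2, 42.2 to 47.1 and 27.7 to 32.7 CPM in untreated CFs, and 5.27 to 6.02 in TGF-β si-NC CFs. Fibroblast markers summed to 10755 to 10862 CPM with si-NC, 13398 to 13678 with si-IAMP-1 and 9381 to 9672 with si-IAMP-2 in untreated CFs. The untreated groups of Acta2 and Tagln parted in the same order without overlap, and those of Myl9, Smtn and Tpm1 in other orders. For Cnn1, Actg2, Myh11, Tpm2 and Lmod1 groups overlapped, with the means of Cnn1, Actg2 and Myh11 in the order of the fibroblast sum. In TGF-β CFs the fibroblast markers summed to 15400.2 to 15977, 15617 to 16000.1 and 17004 to 17721 CPM. Macrophage markers, in the same order, summed to 57.4 to 61.4, 58.2 to 61.6 and 74.4 to 78.2 CPM in untreated CFs and to 156 to 165, 126 to 141 and 140.1 to 147 in TGF-β CFs, where both siRNAs lay below si-NC. Endothelial markers summed to 70.4 to 76.5, 65.4 to 69.6 and 72.8 to 75.3 CPM in untreated CFs and to 121 to 122, 132 to 133 and 122 to 129 in TGF-β CFs. The fibroblast sum joins genes that moved in both directions. Of its 9 markers in untreated CFs, 4 were called higher and 2 lower with si-IAMP-1, beside 19.5% and 20.4% of all genes. With si-IAMP-2, 2 were higher and 5 lower, beside 24.4% and 25%. Between TGF-β and untreated si-NC CFs, 3 were higher and 5 lower, beside 28% and 27.5%. The part of any of these cells in the results was not tested.

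Acta2 (ENSMUSG00000035783, minus strand of chromosome 19, 34241090 to 34255590, GRCm38) encodes smooth-muscle α-actin, the thin-filament actin by which myofibroblasts are usually recognised. It stood at 1056, 1025 and 1061 CPM in the 3 untreated si-NC libraries, 1284, 1258 and 1188 with si-IAMP-1 and 637, 607 and 619.9 with si-IAMP-2. In TGF-β CFs the levels were 3167, 3019 and 3024 CPM with si-NC, 2041, 1967 and 1929.9 with si-IAMP-1 and 1445, 1522 and 1539 with si-IAMP-2. No library of one group reached into another group of the same culture. IL17 CFs gave 882 to 907, 1035 to 1109 and 530.4 to 531 CPM in the same order. The siRNAs moved Acta2 in opposite directions in untreated CFs, by 0.24 (standard error 0.0338, edgeR adjusted p = 1.98e-05) and −0.77 (standard error 0.0341, edgeR adjusted p = 7.42e-12), and again in IL17 CFs, by 0.26 (edgeR adjusted p = 7.28e-07) and −0.78 (edgeR adjusted p = 3.05e-13). In TGF-β CFs both lowered it, at −0.63 (standard error 0.0359, edgeR adjusted p = 1.21e-09) with si-IAMP-1 and −1.03 (standard error 0.0362, edgeR adjusted p = 2.82e-12) with si-IAMP-2. The coding sequence of Acta2 is 84.22% identical to that of Actg2, 85.36% to that of skeletal actin Acta1 and 81.48% to that of the nonmuscle actin Actg1. No stretch of 100 bases is shared with any of the 5 other actins, and the longest shared run is 29 bases with Actg2 and 56 with Actg1, so short reads within such runs can be assigned to either gene.

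Actg2 (ENSMUSG00000059430, minus strand of chromosome 6, 83512905 to 83536265) encodes smooth-muscle γ-actin, the actin of visceral smooth muscle, and was near the limit of what these libraries measure. It ranged from 1.00 to 1.32 CPM with si-NC, 1.20 to 1.63 with si-IAMP-1 and 0.705 to 1.17 with si-IAMP-2 in untreated CFs, which is 81 to 183 estimated counts over the 9 libraries. In TGF-β CFs the ranges were 2.12 to 3.10, 1.66 to 2.36 and 1.29 to 2.37 CPM. Neither siRNA was called against si-NC in any culture, and the 95% intervals were −0.16 to 0.78 and −0.83 to 0.12 in untreated and −0.86 to 0.0327 and −1.05 to −0.15 in TGF-β CFs. The last of these, si-IAMP-2 under TGF-β, stood at −0.60 (edgeR adjusted p = 0.0613), and was called with at least 10 counts in every library (edgeR adjusted p = 0.0405), with estimated counts divided by 6 (0.0326) and with a replicate block (0.0364). Without si-IAMP-2 replicate 3 it was −0.91 (edgeR adjusted p = 0.00606) and without si-NC replicate 1 it was −0.72 (edgeR adjusted p = 0.0462), and the other libraries left out gave adjusted p of up to 0.2496. Between the siRNAs, si-IAMP-2 was lower than si-IAMP-1, at −0.66 (standard error 0.240, edgeR adjusted p = 0.0321) in untreated CFs and at −0.97 (standard error 0.255, edgeR adjusted p = 0.00448) in IL17 CFs. Without single libraries the untreated difference ran from −0.90 to −0.52, with an edgeR adjusted p of up to 0.135 when any of 4 libraries (si-IAMP-1 replicate 1 or 2, si-IAMP-2 replicate 2 or 3) was left out.

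Tagln (ENSMUSG00000032085, minus strand of chromosome 9, 45929619 to 45936058) encodes transgelin, or SM22α, which binds and cross-links actin filaments and is one of the earliest smooth-muscle genes to come on. Untreated si-NC libraries held 430.3, 383 and 430.3 CPM of Tagln, si-IAMP-1 libraries 498, 493 and 481, and si-IAMP-2 libraries 193, 187 and 207. Under TGF-β the values were 1119, 1071 and 1097 CPM with si-NC, 762, 708 and 719 with si-IAMP-1 and 563, 608 and 611 with si-IAMP-2. As with Acta2, the 3 groups of a culture did not overlap, with si-IAMP-1 highest in untreated CFs and si-NC highest in TGF-β CFs. In IL17 CFs the groups spanned 324 to 335 (si-NC), 392 to 417 (si-IAMP-1) and 136 to 149 CPM (si-IAMP-2). Tagln was higher with si-IAMP-1 by 0.24 (standard error 0.0471, edgeR adjusted p = 0.000781) in untreated CFs and by 0.30 in IL17 CFs (edgeR adjusted p = 1.51e-06), and lower with si-IAMP-2, at −1.10 (standard error 0.0478, edgeR adjusted p = 2.94e-11) and −1.24 (edgeR adjusted p = 1.76e-14). Under TGF-β it was lower with both, at −0.59 (standard error 0.0389, edgeR adjusted p = 7.66e-09) and −0.88 (standard error 0.0391, edgeR adjusted p = 3.13e-11). An antisense gene, Gm48529, covers 62.4% of the annotated exon bases of Tagln, and Pcsk7 covers 5.43%. Whether the counting used strand is not stated, so where the exons of Tagln and Gm48529 overlap their reads cannot be told apart. Gm48529 averaged 41.0 CPM with si-NC, 43.1 with si-IAMP-1 and 18.9 with si-IAMP-2 in untreated CFs. Its difference there was 0.0657 (edgeR adjusted p = 0.704) with si-IAMP-1 and −1.14 (edgeR adjusted p = 7.05e-06) with si-IAMP-2.

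Cnn1 (ENSMUSG00000001349, plus strand of chromosome 9, 22099216 to 22109630) encodes calponin, an actin-bound inhibitor of myosin ATPase that appears late in smooth-muscle differentiation. Its levels were 1.53, 2.01 and 2.25 CPM in the 3 untreated si-NC libraries, 2.12, 2.59 and 1.94 with si-IAMP-1 and 0.838, 0.538 and 0.540 with si-IAMP-2. In TGF-β CFs the levels were 14.1, 11.8 and 15.7 CPM with si-NC, 7.11, 6.40 and 6.78 with si-IAMP-1 and 3.76, 3.72 and 3.06 with si-IAMP-2. In untreated CFs the si-NC and si-IAMP-1 libraries overlapped and every si-IAMP-2 library was lower, while in TGF-β CFs the 3 groups were stepwise apart. IL17 CFs gave 1.16 to 1.45, 1.09 to 1.49 and 0.254 to 0.675 CPM in the same order. si-IAMP-2 lowered Cnn1 in all 3 cultures, at −1.61 (standard error 0.232, edgeR adjusted p = 1.62e-05) in untreated CFs, −1.46 in IL17 CFs (edgeR adjusted p = 0.000558) and −1.98 (standard error 0.115, edgeR adjusted p = 9.21e-10) in TGF-β CFs, where it was the most lowered of the 10 genes. si-IAMP-1 lowered it in TGF-β CFs, at −1.03 (standard error 0.110, edgeR adjusted p = 2.17e-06), and its 95% interval was −0.23 to 0.62 in untreated CFs and −0.53 to 0.60 in IL17 CFs. The low untreated values rest on 61 to 291 estimated counts per library.

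Smtn (ENSMUSG00000020439, minus strand of chromosome 11, 3517523 to 3540612) encodes smoothelin, an actin-bound protein of contractile smooth muscle. Untreated si-NC libraries held 154, 152 and 156 CPM of Smtn, si-IAMP-1 libraries 84.5, 78.7 and 81.2, and si-IAMP-2 libraries 68.4, 64.6 and 68.2. Under TGF-β the values were 135, 129.8 and 143 CPM with si-NC, 89.9, 90.3 and 92.8 with si-IAMP-1 and 98.8, 94.1 and 102 with si-IAMP-2. Every library of either siRNA was below every si-NC library of its culture. In IL17 CFs the groups spanned 141 to 145 (si-NC), 78.0 to 83.7 (si-IAMP-1) and 62.9 to 68.0 CPM (si-IAMP-2). si-IAMP-1 lowered Smtn, at −0.93 (standard error 0.0371, edgeR adjusted p = 7.24e-12) in untreated, −0.85 in IL17 (edgeR adjusted p = 9.38e-12) and −0.58 (standard error 0.0418, edgeR adjusted p = 2.13e-08) in TGF-β CFs. With si-IAMP-2 the changes were −1.22 (standard error 0.0374, edgeR adjusted p = 9.54e-14), −1.16 (edgeR adjusted p = 7.69e-14) and −0.47 (standard error 0.0417, edgeR adjusted p = 1.67e-07). Under TGF-β the 3 si-IAMP-2 libraries lay above the 3 si-IAMP-1 libraries, at 0.11 (standard error 0.0418, edgeR adjusted p = 0.0629), which missed the threshold. The antisense gene Gm11946 covers 16.3% of the exon bases of Smtn, but it stood at no more than 1.24 CPM in any CF library.

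Lmod1 (ENSMUSG00000048096, plus strand of chromosome 1, 135324807 to 135368065) encodes leiomodin, which nucleates actin filaments in smooth muscle. The gene stood at 4.03, 3.29 and 2.53 CPM in the 3 untreated si-NC libraries, 3.50, 3.25 and 3.01 with si-IAMP-1 and 1.81, 1.52 and 1.02 with si-IAMP-2. In TGF-β CFs the levels were 13.9, 12.7 and 14.0 CPM with si-NC, 10.8, 10.8 and 9.72 with si-IAMP-1 and 5.11, 5.21 and 5.52 with si-IAMP-2. si-NC and si-IAMP-1 overlapped in untreated CFs, and si-IAMP-2 lay below both in each culture. IL17 CFs gave 1.82 to 2.03, 1.29 to 2.13 and 0.658 to 1.04 CPM in the same order. It was lower with si-IAMP-2, at −1.20 (standard error 0.207, edgeR adjusted p = 0.000107), −1.19 (edgeR adjusted p = 0.000348) and −1.36 (standard error 0.0822, edgeR adjusted p = 1.42e-09) in untreated, IL17 and TGF-β CFs. With si-IAMP-1 the change was −0.38 (standard error 0.0798, edgeR adjusted p = 0.00206) under TGF-β, and the 95% interval in untreated CFs was −0.41 to 0.37.

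Myh11 (ENSMUSG00000018830, minus strand of chromosome 16, 14194535 to 14291372) encodes the smooth-muscle myosin heavy chain, the marker most restricted to smooth muscle among these genes, and it stayed low in every CF culture. Untreated CFs held 1.95 to 2.25 CPM with si-NC, 2.84 to 3.05 with si-IAMP-1 and 1.86 to 2.04 with si-IAMP-2, and TGF-β CFs 3.48 to 4.56, 3.46 to 3.54 and 1.97 to 2.50. The IL17 groups overlapped, at 1.87 to 2.60, 1.67 to 3.01 and 1.87 to 2.24 CPM. It was higher with si-IAMP-1 in untreated CFs by 0.47 (standard error 0.144, edgeR adjusted p = 0.0148), a call that was lost at an edgeR adjusted p of 0.0513 without si-IAMP-1 replicate 1 and of 0.063 without si-NC replicate 1. si-IAMP-2 lowered it in TGF-β CFs, at −0.90 (standard error 0.143, edgeR adjusted p = 0.000115), and the 95% interval of si-IAMP-1 there was −0.52 to 0.0352.

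Myl9 (ENSMUSG00000067818, plus strand of chromosome 2, 156775420 to 156781658) encodes the regulatory light chain of smooth-muscle and nonmuscle myosin, whose phosphorylation switches contraction on. It was lower with both siRNAs in every culture, as was Smtn. Untreated si-NC libraries held 86.1, 76.7 and 85.4 CPM of Myl9, si-IAMP-1 libraries 39.5, 39.7 and 36.3, and si-IAMP-2 libraries 32.7, 29.8 and 30.3. Under TGF-β the values were 291, 267 and 279.8 CPM with si-NC, 145, 149 and 148 with si-IAMP-1 and 107, 109.6 and 107 with si-IAMP-2. All siRNA libraries fell below all si-NC libraries of their culture, and si-IAMP-2 lay below si-IAMP-1 each time. In IL17 CFs the groups spanned 62.9 to 64.2 (si-NC), 23.9 to 28.8 (si-IAMP-1) and 17.5 to 21.5 CPM (si-IAMP-2). The change with si-IAMP-1 was −1.11 (standard error 0.0561, edgeR adjusted p = 1.20e-10) in untreated, −1.25 (edgeR adjusted p = 3.31e-09) in IL17 and −0.92 (standard error 0.0353, edgeR adjusted p = 1.26e-11) in TGF-β CFs. si-IAMP-2 gave −1.44 (standard error 0.0567, edgeR adjusted p = 1.82e-12), −1.68 (edgeR adjusted p = 5.72e-11) and −1.37 (standard error 0.0358, edgeR adjusted p = 2.60e-13). Its promoter is the one with the exact CArG box printed above. The related light chains Myl12a and Myl12b, which serve nonmuscle myosin, were also lower with si-IAMP-1, at −0.66 and −0.53 in untreated and −0.54 and −0.55 in TGF-β CFs.

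Tpm1 (ENSMUSG00000032366, minus strand of chromosome 9, 67022590 to 67049406) encodes α-tropomyosin, which lies along the actin filament and gates myosin. Its 21 annotated transcripts serve striated muscle, smooth muscle and other cells, and the tables sum over them. Levels were 521, 481 and 515 CPM in the 3 untreated si-NC libraries, 709.7, 685 and 688 with si-IAMP-1 and 654, 641 and 645 with si-IAMP-2. In TGF-β CFs the levels were 1022, 1024 and 1026 CPM with si-NC, 794, 792 and 824 with si-IAMP-1 and 765, 788 and 727 with si-IAMP-2. si-NC was thus the lowest group in untreated CFs and the highest in TGF-β CFs, with no overlap in either. IL17 CFs gave 478 to 483, 651 to 664 and 599 to 625 CPM in the same order. Both siRNAs raised Tpm1 in untreated CFs, by 0.45 (standard error 0.0326, edgeR adjusted p = 9.35e-09) and 0.33 (standard error 0.0326, edgeR adjusted p = 1.67e-07), and in IL17 CFs, by 0.44 and 0.32 (edgeR adjusted p = 1.59e-10 and 4.29e-09). Both lowered it in TGF-β CFs, at −0.35 (standard error 0.0344, edgeR adjusted p = 8.84e-07) and −0.43 (standard error 0.0344, edgeR adjusted p = 4.72e-08).

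Tpm2 (ENSMUSG00000028464, minus strand of chromosome 4, 43514711 to 43523765) encodes β-tropomyosin, its partner on smooth-muscle thin filaments. Untreated si-NC libraries held 93.7, 84.9 and 94.4 CPM of Tpm2, si-IAMP-1 libraries 91.9, 88.9 and 91.9, and si-IAMP-2 libraries 46.3, 41.0 and 44.3. Under TGF-β the values were 153, 144 and 146 CPM with si-NC, 103, 103 and 108 with si-IAMP-1 and 66.7, 62.4 and 68.4 with si-IAMP-2. The si-NC and si-IAMP-1 libraries overlapped in untreated CFs, unlike those of Tpm1, and si-IAMP-2 was clear of both. In IL17 CFs the groups spanned 74.8 to 78.2 (si-NC), 73.9 to 77.9 (si-IAMP-1) and 34.8 to 37.8 CPM (si-IAMP-2). si-IAMP-2 lowered Tpm2, at −1.07 (standard error 0.0507, edgeR adjusted p = 1.83e-11), −1.10 (edgeR adjusted p = 4.03e-13) and −1.17 (standard error 0.0404, edgeR adjusted p = 2.69e-12), and si-IAMP-1 lowered it under TGF-β, at −0.50 (standard error 0.0398, edgeR adjusted p = 6.77e-08). In untreated CFs the 95% interval with si-IAMP-1 was −0.10 to 0.0899, so a change as large as that of Tpm1 lies outside it.

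TGF-β CFs expressed more of the contractile genes than untreated CFs. With si-NC, 9 of 10 were higher and 1 lower, beside 28% and 27.5% of all 22359 genes tested, and no gene's libraries overlapped. The median difference was 1.29 on the log2 scale against 0.0188 over all genes. Calponin and leiomodin moved most, Cnn1 by 2.84 (standard error 0.208, edgeR adjusted p = 2.44e-13) and Lmod1 by 2.04 (standard error 0.177, edgeR adjusted p = 1.16e-11). Myl9 followed at 1.75, Acta2 at 1.55, Tagln at 1.40, Actg2 at 1.19, Tpm1 at 1.02, Myh11 at 0.97 and Tpm2 at 0.70, the largest edgeR adjusted p of these being 0.000108 for Actg2. Smtn alone was lower, at −0.18 (standard error 0.0395, edgeR adjusted p = 0.000203). IL17 CFs with si-NC were instead lower in 5 of the 10 genes and higher in none, beside 6.1% and 6.13% of all genes. These were Lmod1 at −0.74 (standard error 0.179, edgeR adjusted p = 0.00373), Myl9 at −0.38 (standard error 0.0628, edgeR adjusted p = 6.64e-05), Tagln at −0.34 (standard error 0.0437, edgeR adjusted p = 5.56e-07), Tpm2 at −0.26 (standard error 0.0445, edgeR adjusted p = 5.44e-05) and Acta2 at −0.22 (standard error 0.0328, edgeR adjusted p = 4.86e-06). The 3 IL17 libraries also lay below the untreated ones for Cnn1, at −0.61 (standard error 0.207, edgeR adjusted p = 0.0509), and for Smtn, at −0.10 (standard error 0.0395, edgeR adjusted p = 0.0857). Cnn1 was called with DESeq2 (adjusted p = 0.0274). It was also called with at least 10 counts in every library (edgeR adjusted p = 0.0326) and with estimated counts divided by 6 (0.0287). Over single libraries left out, its edgeR adjusted p ran from 0.0250 to 0.233. Smtn was called with estimated counts divided by 6 (edgeR adjusted p = 0.0468). Tpm1, at −0.0739, was called with DESeq2 (adjusted p = 0.0327) and without untreated si-NC replicate 2 (edgeR adjusted p = 0.0141). As each stimulus has its own table, neither stimulus can be told apart from a difference between the experiments.

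Whether the siRNAs changed the difference between cultures was tested as an interaction in the fit of all 27 libraries. For Acta2, TGF-β CFs were 2.93-fold above untreated CFs with si-NC, 1.59-fold with si-IAMP-1 and 2.42-fold with si-IAMP-2. The corresponding folds were 2.02, 1.16 and 1.18 for Tpm1, and 3.37, 3.83 and 3.48 for Myl9. At a difference of at least 1 on the log2 scale, Cnn1 was the single contractile gene called, with a lower si-IAMP-1 effect in TGF-β than in untreated CFs, at a difference of −1.24 (standard error 0.280, edgeR adjusted p = 0.00134). All genes tested gave 1.43% higher and 0.886% lower calls with si-IAMP-1, and 2.81% and 2.13% with si-IAMP-2, where no contractile gene passed. By the adjusted p alone, the si-IAMP-1 effect was lower under TGF-β for 6 genes and higher for 1, beside 10.3% and 9.2% of all genes. The 6 were Cnn1, Acta2 at −0.88 (standard error 0.0464, edgeR adjusted p = 2.80e-15), Tagln at −0.83 (standard error 0.0617, edgeR adjusted p = 7.51e-12), Tpm1 at −0.81 (standard error 0.0432, edgeR adjusted p = 4.08e-15), Myh11 at −0.72 (standard error 0.235, edgeR adjusted p = 0.0275) and Tpm2 at −0.50 (standard error 0.0628, edgeR adjusted p = 2.59e-07). Smtn was the one in the other direction, at 0.34 (standard error 0.0561, edgeR adjusted p = 2.43e-05).

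With si-IAMP-2, the effect was lower under TGF-β for 3 genes and higher for 2 by the adjusted p alone, beside 15.3% and 14.2% of all genes. Tpm1 stood at −0.78 (standard error 0.0432, edgeR adjusted p = 1.80e-15), Myh11 at −0.79 (standard error 0.237, edgeR adjusted p = 0.0102) and Acta2 at −0.28 (standard error 0.0464, edgeR adjusted p = 1.39e-05) on the lower side, with Smtn at 0.73 (standard error 0.0562, edgeR adjusted p = 3.96e-12) and Tagln at 0.20 (standard error 0.0617, edgeR adjusted p = 0.0126) on the higher side. The Tagln difference was 0.17 (edgeR adjusted p = 0.0509) without untreated si-IAMP-2 replicate 2. Tpm1 differed between the cultures with both siRNAs by nearly the same amount, while Tagln differed in opposite directions. The differences of both siRNAs share the si-NC libraries of each culture, so their likeness is not read as a result. For Myl9 the 95% intervals of the difference were 0.00765 to 0.35 with si-IAMP-1 and −0.13 to 0.22 with si-IAMP-2, and for Lmod1 −0.84 to 0.11 and −0.67 to 0.31. Between IL17 and untreated CFs no difference in siRNA effect passed the adjusted p for a contractile gene, whatever its size. By the adjusted p alone, all genes gave 0.76% higher and 0.971% lower calls with si-IAMP-1 and 0.568% and 1.07% with si-IAMP-2. At a difference of at least 1 they gave 0.085% and 0.085%, then 0.0716% and 0.103%. The estimates for the 10 genes ran from −0.44 to 0.15 with si-IAMP-1 and from −0.25 to 0.15 with si-IAMP-2.

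**Figure D3:**
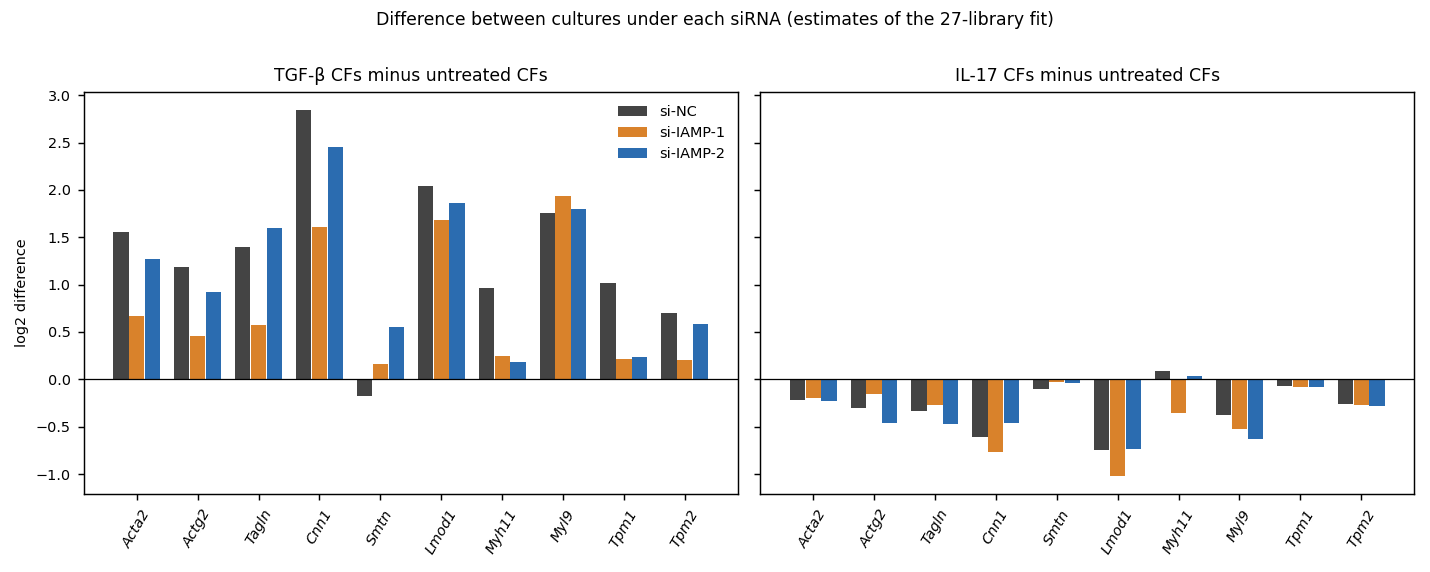
Log2 difference of TGF-β CFs and of IL17 CFs from untreated CFs for each contractile gene, with 1 bar per siRNA from the fit of 27 libraries and no error drawn. In the TGF-β panel the si-IAMP-1 bars of Acta2, Tagln, Tpm1 and Tpm2 are shorter than the si-NC bars, the Myl9 bar is not, and Smtn alone points below 0 with si-NC.

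Transcripts of genes that switch the contractile programme and myosin phosphorylation were called in both directions. Of 25 such regulators, 9 higher and 8 lower were called with si-IAMP-1 and 14 higher and 7 lower with si-IAMP-2 in untreated CFs, and 5 higher and 8 lower, then 5 higher and 10 lower, in TGF-β CFs. All genes tested gave 19.5% higher and 20.4% lower, then 24.4% and 25%, in untreated CFs, and 11.7% and 11.4%, then 15.1% and 14.8%, in TGF-β CFs. The medians of the regulators were 0.0259, 0.22, −0.0529 and −0.0724 on the log2 scale. Their highest estimates, in the same order, were 0.57, 0.896, 0.31 and 0.47. The regulators named next were picked by size of change and are mostly lower, so they do not stand for the list. Ppp1r14a, or CPI-17, which blocks the phosphatase that switches myosin off, was lower with si-IAMP-1, at −1.20 in untreated and −0.75 in TGF-β CFs, and with si-IAMP-2, at −1.54 and −1.25. Mylk, the kinase that phosphorylates the regulatory light chain, was lower, at −0.69 and −1.62 with the siRNAs in untreated CFs and at −0.91 with si-IAMP-2 in TGF-β CFs. Among the transcriptional cofactors, Myocd (myocardin) was lower with si-IAMP-2 in untreated CFs, at −1.63, Mrtfb with si-IAMP-1, at −0.46 and Fhl2 with si-IAMP-2, at −1.09. In TGF-β CFs with si-IAMP-1, Fhl2 stood at −0.46, Klf5 at −0.44 and Mrtfa at −0.37, while Foxo4, which restrains myocardin, was higher by 0.57 in untreated CFs. Myocd averaged 1.07 CPM in untreated si-NC CFs and was under the floor of 18 estimated counts in all TGF-β CFs with si-IAMP-2, so no fold is given there. Srf itself, named after its values were seen, was not called with either siRNA in untreated CFs, at −0.0673 and −0.0217.

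Genes that anchor actin or otherwise mark smooth muscle were called lower more often than higher with each siRNA in untreated and TGF-β CFs. Of 26, 7 higher and 12 lower were called with si-IAMP-1 and 4 higher and 21 lower with si-IAMP-2 in untreated CFs, then 2 higher and 15 lower and 2 higher and 18 lower in TGF-β CFs, with medians of −0.14, −0.32, −0.19 and −0.35. The shares of all genes were 19.5% higher and 20.4% lower, 24.4% and 25%, 11.7% and 11.4%, and 15.1% and 14.8% in the same order. In untreated CFs the largest changes were Synm (synemin) at −1.11, Fermt2 (kindlin) at −0.84, Itga8 (integrin α8) at −0.75 and Cald1 (caldesmon) at 0.63 with si-IAMP-1. With si-IAMP-2 they included Itga8 at −2.03, Pdlim3 at −1.47 and Des (desmin) at −0.87. In TGF-β CFs, Csrp2 stood at −0.66, Zyx (zyxin) at −0.51 and Palld (palladin) at −0.42 with si-IAMP-1, and Pdlim3 at −0.86 and Synpo2 at −0.70 with si-IAMP-2. With si-NC, TGF-β CFs against untreated CFs gave 13 higher and 13 lower of this list, beside 28% and 27.5% of all genes, from Itga8 at −2.81 and Vcl (vinculin) at −2.49 to Synpo2 at 2.70 and Csrp2 at 2.19. The regulators were 8 higher and 13 lower, among them Ppp1r14a at 1.78, Myocd at −1.42, Mrtfb at −1.23 and Rock2 at −1.18. In IL17 si-NC CFs, 2 higher and 12 lower of the 26 and 1 higher and 8 lower of the 25 were called, beside 6.13% and 6.1% of all genes, with Pdlim3 at −0.996 and Myocd at −1.67 the largest.

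Paralogues, the related genes that other cells use for the same parts, were read beside the 10 genes. Of 23, 20 were tested against si-NC, with 3 higher and 9 lower by si-IAMP-1 and 5 higher and 9 lower by si-IAMP-2 in untreated CFs, and 0 higher and 11 lower, then 2 higher and 9 lower, in TGF-β CFs. Their medians were −0.17, −0.12, −0.18 and −0.20, and the shares of all genes are those given for the regulators. Nonmuscle myosin Myh10 was lower with si-IAMP-2, at −1.61 in untreated and −0.79 in TGF-β CFs, and the tropomodulin Tmod1 with si-IAMP-1, at −0.99 in untreated CFs. Skeletal actin Acta1 was lower with si-IAMP-2 in untreated CFs, at −0.90, and with si-IAMP-1 under TGF-β, at −0.71, at levels of at most 2.88 CPM in any CF library. The smoothelin relative Smtnl2 rose in TGF-β si-NC CFs to 15.02 CPM from 0.412 CPM and was lower there with either siRNA, at −0.48 and −0.78. In hearts no gene of the 3 lists was called. No set test was made on them. The plot of the lists shows the siRNA comparisons in untreated and TGF-β CFs beside all genes.

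**Figure D4:**
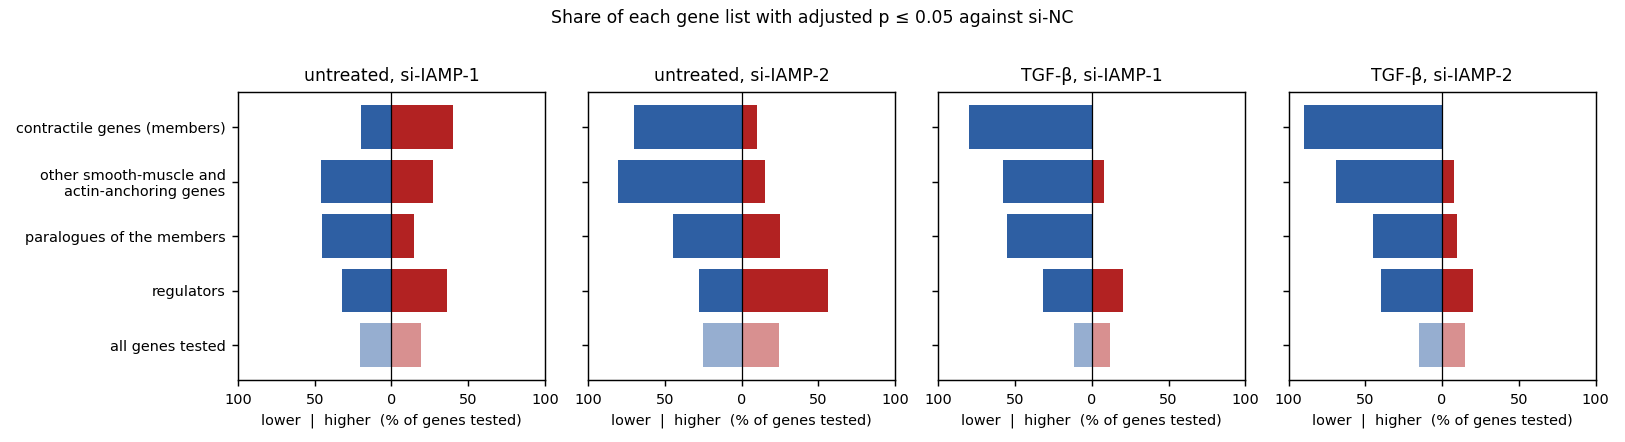
Share of each gene list called lower (blue, left) and higher (red, right) against si-NC, in percent of the genes tested, for both siRNAs in untreated and TGF-β CFs, with all genes tested in pale colours at the bottom. In TGF-β CFs the 10 contractile genes have no red bar and are called lower in 80% with si-IAMP-1 and 90% with si-IAMP-2, beside 11.4% and 14.8% of all genes.

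The gene whose pattern over the 27 CF libraries was most like that of Acta2 was Tagln. Likeness was measured as the root mean square difference of log2 CPM after centring each gene on its own mean, among the 9261 genes that averaged 10 CPM or more, and it was 0.182 for Tagln. The nearest genes outside the 10 were Gpx3 at 0.216, Zdhhc2 at 0.219, Shisa4 at 0.237, Mmp23 at 0.250 and Lactb2 at 0.252. Tpm2 ranked 62 at 0.334, Tpm1 959 at 0.550, Myl9 1765 at 0.627 and Smtn 2088 at 0.655, and the other 4 were under the level limit. The libraries share groups and experiments, so this is a description.

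In hearts none of the 10 genes was called between KO and Het mice. No gene of 16675 tested was called by edgeR in either direction (0% higher and 0% lower), 601 had an unadjusted p under 0.05, none of them a contractile gene, and DESeq2 called 2 genes higher and 1 lower. Acta2 stood at 121, 96.5, 124 and 153 CPM in the 4 Het hearts and 116, 97.2, 106 and 134 in the 4 KO hearts. Tagln was at 22.7, 13.6, 33.6 and 42.5 CPM in Het and 35.4, 29.4, 35.8 and 24.98 in KO hearts, and Myh11 at 24.5, 13.8, 26.1 and 36.2 and 28.3, 25.9, 28.6 and 22.8. The groups overlapped for all 10 genes. Myl9 gave 20.1, 13.1, 24.4 and 28.2 CPM in Het and 27.8, 18.5, 23.6 and 22.2 in KO hearts, and Smtn 172, 158, 161 and 182 and 159, 156, 176 and 156. The remaining smooth-muscle genes ranged over both groups from 1.52 to 9.18 CPM for Cnn1, 2.26 to 7.53 for Lmod1, 11.2 to 19.0 for Tpm2 and 0.647 to 2.36 for Actg2. Tpm1 was the exception in scale, at 6233 to 7088 CPM in Het and 6366 to 6514 in KO hearts. Cardiomyocytes also build their thin filaments with α-tropomyosin. The 95% intervals of the log2 fold change of KO against Het were −0.41 to 0.16 for Acta2, −0.50 to 0.82 for Tagln, −0.35 to 0.55 for Myl9, −0.96 to 1.05 for Cnn1 and −0.15 to 0.0343 for Tpm1.

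The SD was larger among the Het than among the KO hearts for all 10 genes, and 2 Het hearts set most of the extremes. One Het heart was the lowest of all 8 in 7 of the 10 genes (Acta2, Tagln, Cnn1, Myl9, Tpm2, Myh11 and Lmod1), and another Het heart was the highest in 9, every gene except Tpm1, in which it was the lowest. The 10 mural markers summed to 582 to 669 CPM in Het and 598 to 650.2 in KO hearts, and the first of these hearts had the lowest and the second the highest sum of all 8. Whole-heart samples hold cardiomyocytes, vessels and fibroblasts together, and the share of vessel wall in a sample was not tested.

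**Figure D5:**
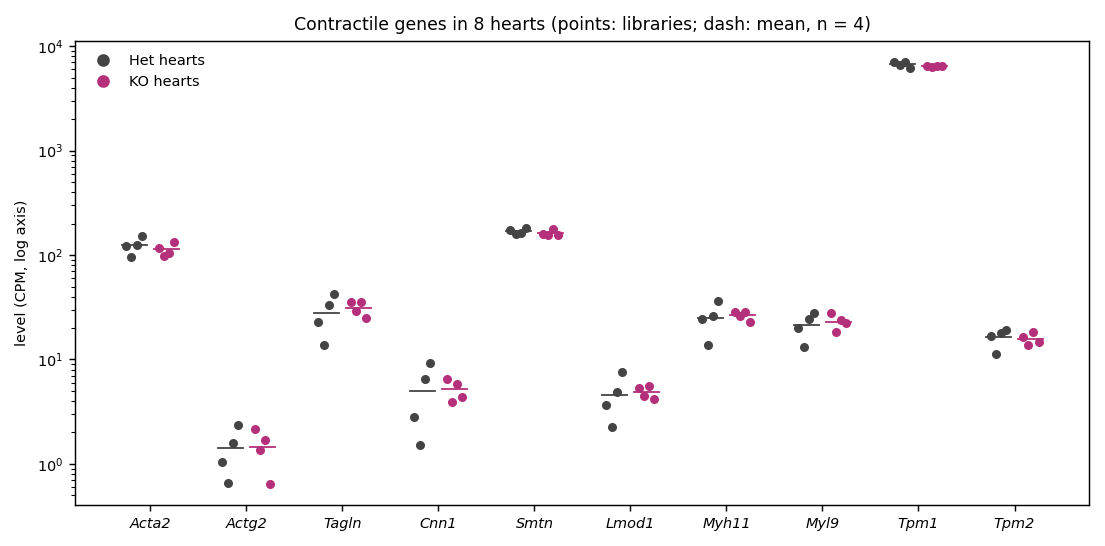
Level of each contractile gene in the 4 Het and 4 KO hearts, in CPM on a log axis, with a dash at each group's mean. The groups overlap for every gene, and Tpm1 stands far above the others.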

How the data were processed

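RNA-Seq was analysed in 27 cardiac fibroblast (CF) libraries and 8 hearts, mapped to groups by the labels. For CFs the authors deposited estimated counts per gene, and for hearts raw counts per gene, made with Cutadapt, HISAT2 on GRCm38 and StringTie. Not given in the sources used here are the annotation release, whether strand was used, and how StringTie output became whole numbers. A read pair in CFs appeared to stand for up to 6 estimated counts, so the floor was 18 estimated counts in CFs and 3 counts in hearts, which covers counting error only.

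Each table was fitted with edgeR 4.0.16 in R 4.3.3 (TMM, filterByExpr, robust quasi-likelihood test, Benjamini-Hochberg adjustment over all genes tested). Differences between cultures and interactions came from 1 fit of the 27 CF libraries in 9 groups. Calls needed an adjusted p of at most 0.05, and interactions also a difference of at least 1 on the log2 scale unless stated. Intervals are the estimate ± 1.96 standard errors. The sources do not say whether replicates were separate cultures, so p-values measure the spread between these libraries.

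The 10 genes and all lists were chosen with earlier results of these data known. All 10 are named, with at most 4 genes of largest change among those called per list and comparison, and the 5 genes outside the 10 most like Acta2. Pdgfrb, Tnnt2 and overlapping genes are named as limits. A gene that this rule would name is not reported here. Alternatives were DESeq2 1.42.0, RLE scaling, no filter or at least 10 counts in every library, fits of only the groups compared, estimated counts divided by 6, a replicate block, and leaving out each library. Scripts were checked on simulated data.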

Additional observations from a re-analysis of the deposited data

Results flagged for a closer look

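Smtn in the KO hearts stood apart in 1 library, at 176 CPM where the next was 159 and the lowest 156, so that the gap was 0.837 of the group's range. Of 20 groups of 4 hearts (10 genes in Het and in KO), this was the single one past Dixon's 95% limit, and chance flags about 1 group in 20. The cause was not tested.

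The effect of si-IAMP-1 on Cnn1 differed between TGF-β CFs and untreated CFs by −1.24 on the log2 scale (edgeR interaction, adjusted p = 0.00134). Every TGF-β library with si-IAMP-1 lay below every TGF-β si-NC library, whereas the untreated groups overlapped.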

How the results depend on the processing

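Over the 10 genes, 2310 values under alternatives were set beside the reported ones. Direction and side of the threshold were kept in 2285, 7 lost the threshold, 18 gained it and 0 reversed.

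Between the siRNAs in TGF-β CFs the count of contractile genes higher went from 0 to 1, Smtn, with at least 10 counts in every library, with estimated counts divided by 6, with only the groups compared and with a replicate block, and from 0 to 1 over single libraries left out (1 without si-IAMP-2 replicate 2). By adjusted p alone, the genes with a higher si-IAMP-1 effect under TGF-β went from 1 to 2, Myl9 being added, with estimated counts divided by 6 and with only the groups compared. For si-IAMP-2 they went from 2 to 1, Tagln being lost, with only the groups compared, and ranged from 1 to 2 over libraries left out. Interactions between IL17 and untreated CFs over all genes went with DESeq2 from 19 to 37 lower for si-IAMP-1, and for si-IAMP-2 from 16 to 43 higher and from 23 to 37 lower. Leaving out single libraries gave 14 to 34 lower for si-IAMP-1 (34 without untreated si-IAMP-1 replicate 2) and 13 to 25 higher for si-IAMP-2 (25 without untreated si-IAMP-2 replicate 3). In hearts DESeq2 called 2 genes higher and 1 lower where edgeR called 0, and leaving out single hearts gave 0 to 1 in each direction. The cause of these changes was not tested.

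Correlations of same-numbered deviations ran from −0.36 to 0.17 within tables, with 4 of 27 over 0.1, and from −0.33 to 0.25 across tables, with 14 of 81. With 3 libraries per group these values cannot show whether replicate numbers pair the libraries. The reported fits used no replicate block. With the replicate block, all genes higher with si-IAMP-1 in untreated CFs went from 3845 to 3790, and no count of contractile genes other than the Smtn one moved by over 1.5 times. No paired analysis was possible in hearts because the heart columns carry no replicate numbers. TMM and RLE scaling differed by at most 0.0152 on the log2 scale. Low counts limit Actg2, Cnn1, Lmod1 and Myh11 in CFs.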
